A study of Mus musculus with 2 samples.

Results

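The 9 genes described here make or break down lipid mediators derived from membrane phospholipids, among 31053 genes counted in immune cells of the mouse cochlea. They were chosen by name, with earlier results of these data known: the cyclooxygenases Ptgs1 and Ptgs2, the prostaglandin synthases Ptges and Hpgds, the leukotriene genes Alox5, Alox5ap, Lta4h and Ltc4s, and the phospholipase Pla2g7. CD45+ cells were sorted from cochleae of mice in 4 conditions, each 1 pool of cochleae of 6 mice digested with Accutase: a sham group, which another label calls untreated, and mice 3, 7 and 14 days after exposure to noise. The labels used here give no strain, sex, age or noise level. Every pool was stained with the same CD45 antibody and its own hashtag antibody (1 to 4), an oligonucleotide-tagged antibody that marks the pool a cell came from. A barcode was placed in a pool when its leading hashtag had at least 10 unique molecular identifiers (UMIs, one per captured transcript) and at least 80% of its hashtag UMIs.

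Phospholipases free arachidonic acid from membranes, and the acid then enters one of several routes. Cyclooxygenases turn it into prostaglandin H, which terminal synthases convert into single prostaglandins; 5-lipoxygenase, helped by its activating protein, turns it into leukotriene A, which is hydrolysed to leukotriene B or joined to glutathione to give cysteinyl leukotrienes. Neutrophils are known as a source of leukotriene B, a chemoattractant for other neutrophils, whereas macrophages, mast cells and basophils are known for prostaglandin D and cysteinyl leukotrienes.

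Ptgs1 and Ptgs2 encode enzymes of the same step but had their highest levels in different lineages. Their start regions are shown for that reason. Beside them are those of Hpgds, highest in the same lineage as Ptgs1, and Pla2g7, highest in the same lineage as Ptgs2. Each sequence is the 250 bases before the start of the gene in RefSeq (build GRCm38.p6), read 5′ to 3′ on the strand of the gene, and 8 of the 9 genes had an entry. Capitals mark the matches to the motifs named after the sequences, searched on both strands. Ptgs1 lies at chr2:36230176-36230425 (plus strand), Ptgs2 at chr1:150099781-150100030 (plus), Hpgds at chr6:65144731-65144980 (minus) and Pla2g7 at chr17:43568201-43568450 (plus).
Ptgs1: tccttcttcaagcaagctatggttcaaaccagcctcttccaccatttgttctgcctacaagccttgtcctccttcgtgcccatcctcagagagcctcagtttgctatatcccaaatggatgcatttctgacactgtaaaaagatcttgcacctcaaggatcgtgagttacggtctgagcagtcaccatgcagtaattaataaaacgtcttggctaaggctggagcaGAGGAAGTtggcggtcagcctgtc
Ptgs2: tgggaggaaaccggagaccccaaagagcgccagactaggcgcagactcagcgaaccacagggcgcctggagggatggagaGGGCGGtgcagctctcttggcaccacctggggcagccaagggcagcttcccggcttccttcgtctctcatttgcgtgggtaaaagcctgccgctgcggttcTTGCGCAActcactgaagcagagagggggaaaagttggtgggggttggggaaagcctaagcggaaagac
Hpgds: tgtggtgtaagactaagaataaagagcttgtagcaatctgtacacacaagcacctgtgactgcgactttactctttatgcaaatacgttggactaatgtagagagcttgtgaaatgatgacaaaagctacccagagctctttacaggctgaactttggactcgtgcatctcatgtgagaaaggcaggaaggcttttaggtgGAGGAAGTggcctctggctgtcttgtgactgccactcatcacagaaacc
Pla2g7: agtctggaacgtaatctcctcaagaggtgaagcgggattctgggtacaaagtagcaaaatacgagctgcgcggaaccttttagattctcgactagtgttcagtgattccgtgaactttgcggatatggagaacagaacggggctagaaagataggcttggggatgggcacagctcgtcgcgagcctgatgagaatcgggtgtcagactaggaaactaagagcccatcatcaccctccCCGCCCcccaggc
The palindrome TTGCGCAA, a form of the C/EBP site, was found upstream of Ptgs2 alone among the 8 genes and in 0.164% of 32851 promoters of the same length. GAGGAAGT, a core of the PU.1 site, was found upstream of Ptgs1 and Hpgds and in 2.44% of all promoters. Ltc4s, also highest in the lineage of Ptgs1 and Hpgds, had no match to any motif named here. GGGCGG, the GC box, was found upstream of Ptgs2, Ptges, Alox5 and Pla2g7 and in 32.7% of all promoters. The TATA box (TATAAA) was found upstream of none of the 8 and in 12.4% of all promoters, the cAMP response element core (CGTCA) of none and in 17.8%, and the E-box (CACGTG) of none and in 6.02%. In the 50 bases after the RefSeq start of Ptgs2, a cAMP response element core and an E-box overlap each other (chr1:150100035-150100061, plus strand, capitals mark the overlapping pair).
Ptgs2 after the start: tcaccactaCGTCACGTGgagtccgct
Windows of this length held the first in 3.49% of all promoters, the second in 1.08% and both in 0.125%. Upstream here means before the RefSeq start, which can differ from the GENCODE gene positions given further below. By those positions the windows of Ptges and Pla2g7 lie within their genes, and those of Hpgds and Ltc4s overlap theirs. These matches describe the letters only, and no binding was measured.

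After filters, 1285 of 1556 barcodes with 14626863 UMIs remained: 341 in the sham pool, 551 on day 3, 216 on day 7 and 177 on day 14. Median UMIs per barcode were 6528, 8378, 7404 and 7190 in that order. Barcodes were placed in lineages by marker panels, and names end in "-like" because they rest on RNA alone. The 12 lineages with at least 10 barcodes held 1220 barcodes, and 24 barcodes fitted no panel. Another 32 carried markers of lineages from more than 1 family of related lineages and were left out of the lineages. The defining markers were present: Retnlg, a neutrophil product, stood at 37390 UMIs per 1000000 UMIs (CPM) in the mature neutrophil-like gate, Camp, a granule gene of maturing neutrophils, at 38157 CPM in the immature gate, and C1qa, a complement gene of macrophages, at 3427 CPM in the macrophage gate. With 1 pool per condition there are no replicates and no p-values, every interval is a 95% Poisson or binomial interval for counting error only, and every ratio of a day divides by the same sham pool. UMIs were read from the 3′ end of transcripts, so levels carry no correction for gene length and are compared within a gene.

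Ptgs2, the inducible cyclooxygenase, had its highest level in mature neutrophil-like cells. It reached 328 CPM there (302 to 357), and these 300 barcodes held 72.1% of the 775 Ptgs2 UMIs while making up 23.4% of all barcodes. Monocyte-like cells followed at 59.8 CPM (43.9 to 79.5), myeloid progenitor-like cells at 55.2 CPM (43.4 to 69.2) and dendritic cell-like cells at 54.4 CPM (30.4 to 89.7), and the intervals of these 3 overlap. In progenitor-like cells 1 barcode held 41.3% of the 75 UMIs, and in dendritic cell-like cells 1 of 18 barcodes held 53.3% of 15 UMIs. Lymphoid cells stood at 7.23 CPM or less, macrophage-like cells at 8.39 CPM on 3 UMIs, and plasmacytoid dendritic cell-like cells had none.

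Ptgs1, the constitutive cyclooxygenase, followed another order. It was highest in macrophage-like cells at 109 CPM (77.5 to 149), where 14 of 29 barcodes carried it. Without the barcode with the most Ptgs1, which held 12 of 39 UMIs, the level was 75.5 CPM. Immature neutrophil-like cells came next at 38.8 CPM (32.7 to 45.7), progenitor-like cells at 25.7 CPM and mature neutrophil-like cells at 20.5 CPM (14.3 to 28.6). No Ptgs1 UMI was found in the dendritic cell-like gates, nor in 284 B cell precursor-like, 81 B cell-like and 90 T cell-like barcodes. By the exact binomial limit, a count of 0 allows up to 1.29%, 4.45% and 4.02% of the 3 lymphoid groups to carry a UMI.

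The terminal synthases also had different lineages of highest level. Hpgds, which makes prostaglandin D in blood cells, stood at 143 CPM (106 to 187) in macrophage-like cells, where 20 of 29 barcodes carried it, or 69.0% (49.2 to 84.7). The share in immature neutrophil-like cells, which were deeper (median 15577 against 12674 UMIs), was 0.926% (0.112 to 3.30). B cell-like cells followed at 22.9 CPM (10.98 to 42.1), where 1 barcode held 5 of 10 UMIs, the basophil or mast cell-like gate at 13.3 CPM on 4 UMIs, and B cell precursor-like cells at 12.2 CPM (8.33 to 17.2). Ptges, the inducible prostaglandin E synthase, gave 30 UMIs in 29 barcodes. Immature neutrophil-like cells held 26 of them (6.96 CPM, 4.54 to 10.2), and no UMI was found in the 300 mature neutrophil-like barcodes. Ptgs2 and Ptges had their highest levels in different neutrophil stages.

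**Figure D1:**
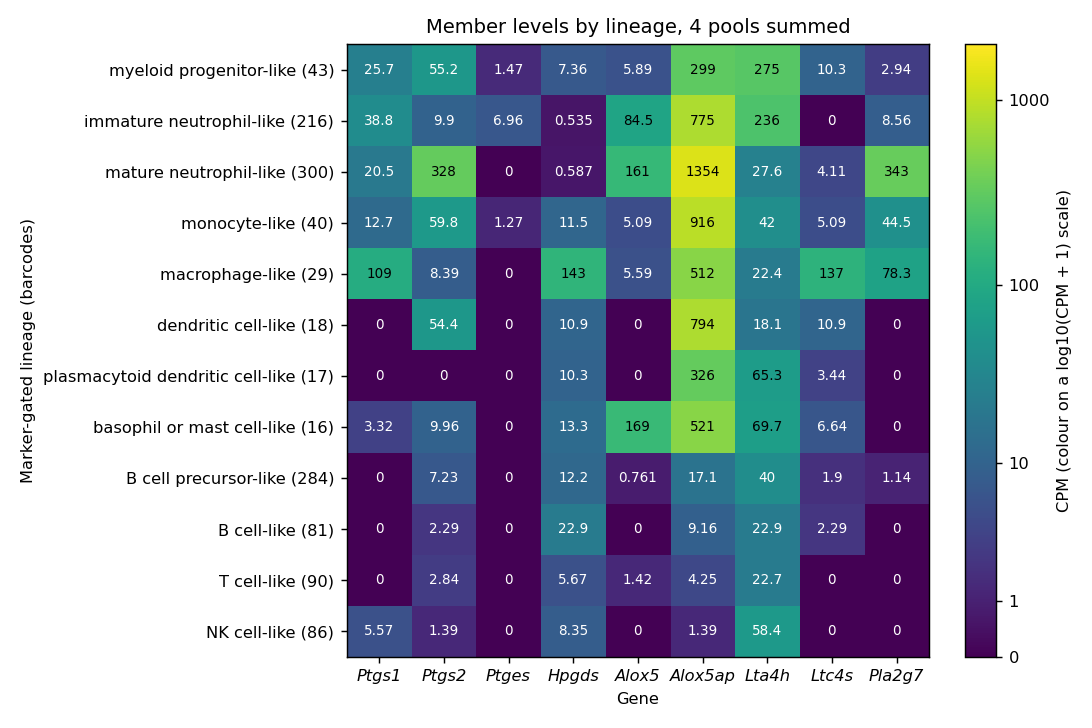
Levels of the 9 genes (columns) in 12 marker-gated lineages (rows, number of barcodes in parentheses), in CPM with the 4 pools summed; colour is on a log scale and the number in each cell is the CPM. Ptgs2 and Pla2g7 are highest in mature neutrophil-like cells at 328 and 343 CPM, and Ptgs1, Hpgds and Ltc4s in macrophage-like cells at 109, 143 and 137 CPM.

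Of the leukotriene genes, Alox5ap was the most widely present. It encodes the membrane protein that hands arachidonic acid to 5-lipoxygenase. Its level was 1354 CPM (1299 to 1410) in mature neutrophil-like cells, 916 CPM (850 to 986) in monocyte-like, 794 CPM in dendritic cell-like and 775 CPM (747 to 803) in immature neutrophil-like cells. Basophil or mast cell-like and macrophage-like cells stood at 521 and 512 CPM, and B, T and NK cell-like cells and B cell precursors at 17.1 CPM or less. Alox5, the 5-lipoxygenase itself, was more restricted. It stood at 169 CPM (126 to 223) in the basophil or mast cell-like gate, 161 CPM (143 to 182) in mature and 84.5 CPM (75.5 to 94.4) in immature neutrophil-like cells; the first and second did not differ beyond counting error. All other lineages were at 5.89 CPM or less, among them monocyte-like and macrophage-like cells at 5.09 and 5.59 CPM, whose Alox5ap was high.

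The basophil or mast cell-like gate could be divided by its proteases. In 15 barcodes without 3 or more UMIs of the mast cell proteases Cma1, Mcpt4 and Tpsb2, 51 Alox5 UMIs were found, 170.9 CPM, in 10 barcodes. These 15 also held 2899 UMIs of the basophil protease Mcpt8, in 9 barcodes, and 22 UMIs of Alox15, a 12/15-lipoxygenase, in 8 barcodes. The single barcode with mast cell proteases had 99 Cma1 UMIs, 3 Hpgds UMIs and no Alox5 UMI. Alox5 in this gate came from the sham pool, 196 CPM over 8 barcodes, and from day 3, 243 CPM over 5 barcodes; the 3 barcodes of the later days had none.

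Lta4h, the hydrolase that makes leukotriene B, was highest in cells at early stages of the myeloid line. Myeloid progenitor-like cells stood at 275 CPM (248 to 304) and immature neutrophil-like cells at 236 CPM (220 to 252), with overlapping intervals. Mature neutrophil-like cells had 27.6 CPM (20.3 to 36.7), which is below NK cell-like cells at 58.4 CPM. Ltc4s, the synthase of cysteinyl leukotrienes, gave 88 UMIs in all, and 55.7% of them lay in macrophage-like cells at 137 CPM (101 to 181). They were unevenly spread: 3 of 29 barcodes held 73.5% of the macrophage UMIs.

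Pla2g7 encodes the acetylhydrolase that inactivates platelet activating factor, a lipid mediator made from the same phospholipids. Mature neutrophil-like cells held 82.5% of its 708 UMIs, at 343 CPM (316 to 372). Macrophage-like cells stood at 78.3 CPM (52.0 to 113), where 1 barcode held 17 of 28 UMIs and the level without it was 30.7 CPM, and monocyte-like cells at 44.5 CPM (31.0 to 61.9). Pla2g7 was found in 183 of 300 mature neutrophil-like barcodes and in 3 of 284 B cell precursor-like barcodes.

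Macrophage-like cells were few, with 6, 11, 8 and 4 barcodes in the sham, day 3, day 7 and day 14 pools, so the days were not compared there. Hpgds stood at 157, 104, 146 and 432 CPM in the 4 pools, and on day 14 only 2 barcodes carried it. Ltc4s stood at 291, 24.9, 191 and 605 CPM, and its 14 UMIs on day 14 came from 1 barcode. Of the 14 barcodes with Ptgs1, 12 also carried Hpgds, out of 20 barcodes with Hpgds among the 29. Ltc4s stood at 420 CPM in the 11 barcodes with Hpgd, the dehydrogenase that inactivates prostaglandins, and at 27.2 CPM in the other 18. It was found in 6 of these 11 barcodes and in 11 of the 29, and 3 barcodes held 73.5% of its UMIs. This difference in level thus rests on few barcodes. The scavenger receptor gene Mrc1 stood at 737 CPM in the 11 barcodes with Ltc4s and at 232 CPM in those without. None of the 11 barcodes with Hpgd had a UMI of Ccr2, a chemokine receptor gene of monocytes, which stood at 636 CPM in the other 18 and was found in 12 of them. Median UMIs were 11918 in barcodes with Ptgs1 and 12879 without, and 13032 with Hpgds and 4780 without. They were 8735 with Hpgd and 14428 without, and 12674 with Ltc4s and 12594 without. These splits were made after the values were seen and were not tested, nor was the part of depth in them.

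Within neutrophils the members differed in both directions between the stages. Against immature neutrophil-like cells, mature ones had Pla2g7 40.0-fold higher (28.1 to 59.1) and Ptgs2 33.1-fold higher (23.8 to 47.6), with Alox5 1.91-fold (1.62 to 2.25) and Alox5ap 1.75-fold higher (1.65 to 1.85). Lta4h stood at 0.117 of the immature level (0.0854 to 0.157), which is 8.54-fold lower, and Ptgs1 at 0.53 (0.355 to 0.771). Ptges, absent from mature cells, was at least 3.95-fold lower when 3 UMIs are allowed for a count of 0. Of the 7 members with at least 20 UMIs in both stages together, 4 were at least 1.5-fold higher and 3 at least 1.5-fold lower; of all 7423 genes so measured, 28.4% were higher and 34.6% lower. A 1.5-fold stage difference was thus common among all genes.

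The direction of Lta4h, Alox5, Alox5ap and Pla2g7 was the same in all 4 pools, though the Alox5 ratio on day 7, 1.41 (0.936 to 2.13), had an interval that includes 1. The Lta4h ratio of mature to immature cells was 0.0932 in the sham pool, 0.0912 on day 3, 0.201 on day 7 and 0.148 on day 14. Alox5ap was 1.96-, 1.72-, 1.503- and 1.96-fold higher in mature cells in the same order. Pla2g7 was 107-fold higher in the sham pool (29.0 to 894, on 2 immature UMIs), 31.5-fold on day 3, at least 25.1-fold on day 7, when immature cells had none, and 67.8-fold on day 14 (22.5 to 335, on 3 immature UMIs). Ptgs1 was lower in mature cells in 3 pools and stood at 1.38 (0.556 to 3.61) on day 7. Immature cells carried Ptgs2 on day 3 alone, in 6 of 134 barcodes, and 1 barcode held 70.3% of the 37 UMIs. Their share with a Ptgs2 UMI on day 3, 4.48% (1.66 to 9.49), was below the 5.88% (1.94 to 13.2) of B cell precursor-like barcodes of that pool, which were shallower, so the share alone is not read as expression. The barcode with the most held 26 UMIs, against at most 2 in a precursor barcode of that pool. Without the barcode with the most UMIs in each stage, the Ptgs2 ratio was 105. With lineages taken from Leiden clusters it was 712 (127 to 28152), on 1 immature UMI, and the Pla2g7 ratio was 146 (62.4 to 452).

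When the 516 neutrophil-like barcodes were cut into 6 equal bins by the difference of their mature and immature marker scores, Lta4h and Ptgs2 changed at different points. Lta4h stood at 303, 202, 58.1, 21.7, 17.4 and 31.6 CPM from the most immature to the most mature bin. Ptgs2 stood at 3.07, 20.7, 6.34, 187, 386 and 1022 CPM, and Pla2g7 at 3.58, 13.5, 23.3, 167, 508 and 934 CPM. Lta4h was thus at its low level in the bin in which Ptgs2 and Pla2g7 passed 100 CPM. Alox5ap went from 643 to 1995 CPM and Alox5 from 56.8 to 186 CPM, each bin above the one before. Ptges had 21 UMIs in the first bin, 4 in the second and 1 in the third. Depth moved with the bins, from a median of 20702 UMIs per barcode to 3298, and its part in these patterns was not tested.

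**Figure D2:**
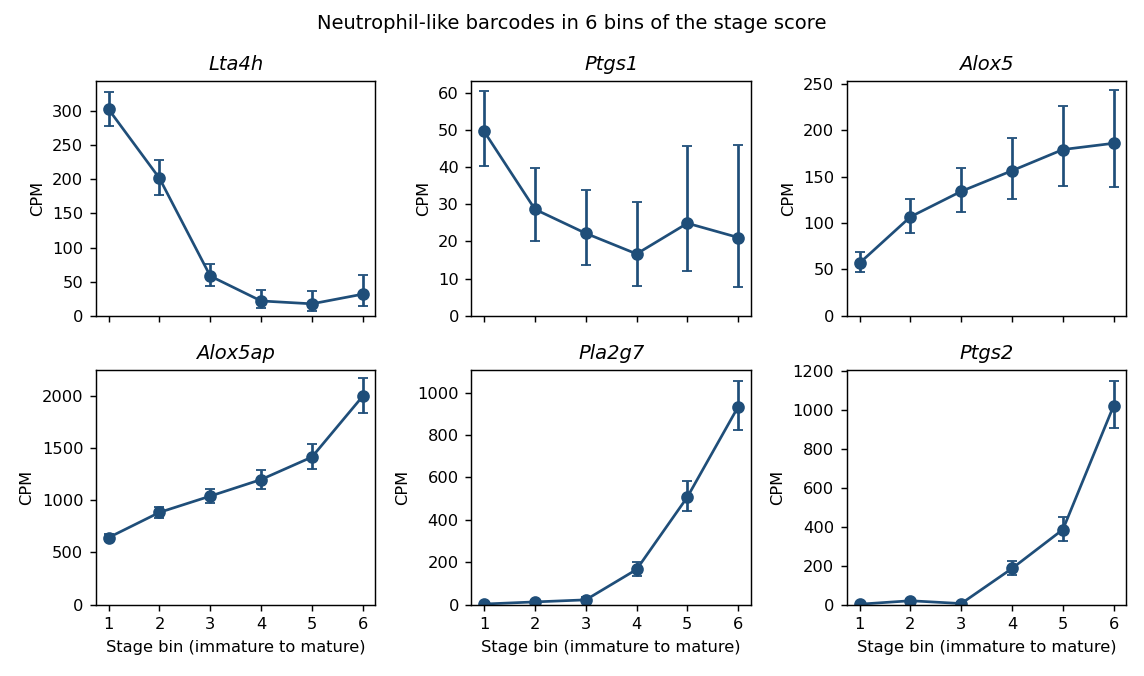
Levels in CPM of 6 members in 6 bins of 86 neutrophil-like barcodes each, ordered by stage score from immature (1) to mature (6); points are pooled levels and bars are 95% Poisson intervals. Lta4h falls from 303 to 31.6 CPM while Ptgs2 and Pla2g7 climb to 1022 and 934 CPM in the last bin.

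After noise, Ptgs2 was the member that passed 1.5-fold in mature neutrophil-like cells among those with at least 20 UMIs. It stood at 100.4 CPM (69.6 to 140.3) in the sham pool, 509.7 CPM (460.1 to 563) on day 3, 180.6 CPM (138 to 232) on day 7 and 289 CPM (228 to 361) on day 14. The sham level was the lowest, and its interval met only that of day 7. Ratios to sham were 5.07 (3.57 to 7.44), 1.80 (1.16 to 2.82) and 2.88 (1.90 to 4.44). Of the 5 members with at least 20 UMIs, Ptgs2 alone was at least 1.5-fold higher on each day and none was 1.5-fold lower. Of all genes measured, 15.5% were higher on day 3, 10.8% on day 7 and 9.53% on day 14, while 9.19%, 11.2% and 13.7% were lower. Ptgs1 fell short of 20 UMIs, with 3 in sham and 14, 14 and 4 on days 3, 7 and 14. Its ratios were 2.09 (0.582 to 11.3), 4.68 (1.31 to 25.4) and 1.67 (0.283 to 11.4).

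Single barcodes weighed heavily in the smaller pools. One barcode held 35.3% of the 34 Ptgs2 UMIs of the sham pool and another 41.0% of the 78 UMIs of day 14, against 7.25% of 386 UMIs on day 3. Without the highest barcode of each pool the ratios were 7.27, 2.19 and 2.62. Barcodes with 10 or more Ptgs2 UMIs numbered 1 of 57, 12 of 136, 1 of 59 and 3 of 48 in the sham, day 3, day 7 and day 14 pools. The 3 of day 14 held 79.5% of that pool's Ptgs2. In contrast, 1 of all 300 barcodes had 10 or more Pla2g7 UMIs.

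The share of mature neutrophil-like barcodes with a Ptgs2 UMI was above the sham interval on day 3 and within it on days 7 and 14. It was 19.3% (10.0 to 31.9) in the sham pool, 47.1% (38.5 to 55.8) on day 3, 28.8% (17.8 to 42.1) on day 7 and 22.9% (12.0 to 37.3) on day 14, at median depths of 5207, 5179, 5447 and 5501 UMIs. B cell precursor-like barcodes, set beside them as cells not known for Ptgs2 since free RNA was not measured, had 3.16%, 5.88%, 5.56% and 2% at 6025, 6459, 6066 and 5898 UMIs. Thinned to 4000 UMIs, which left out 25, 43, 20 and 16 shallower barcodes, the mature shares were 9.38% (1.98 to 25.0), 34.4% (24.9 to 45.0), 17.9% (7.54 to 33.5) and 21.9% (9.28 to 40.0). At that depth the intervals of sham and day 3 met at their ends, and those of days 7 and 14 overlapped both.

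**Figure D3:**
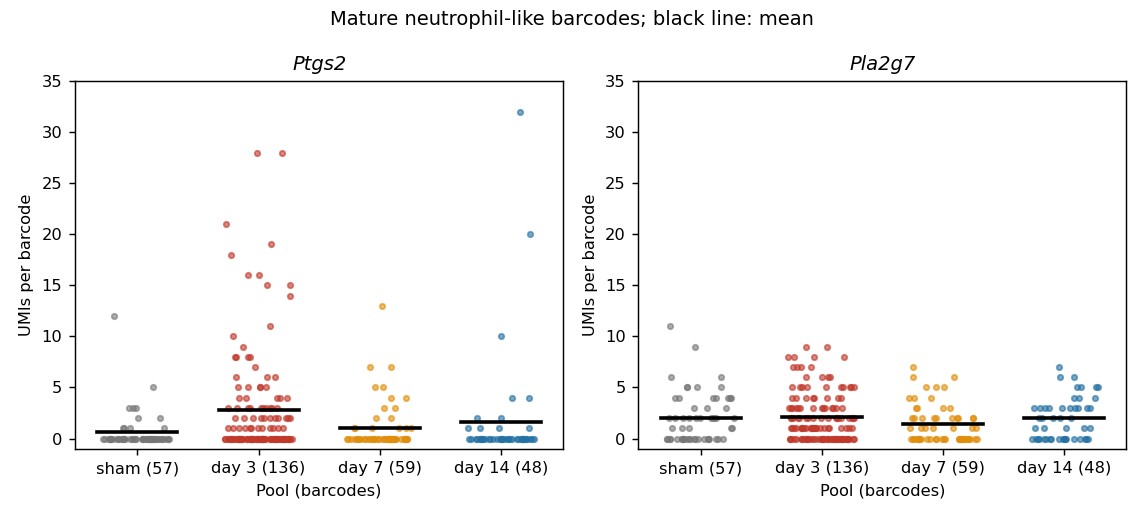
UMIs of Ptgs2 (left) and Pla2g7 (right) in each mature neutrophil-like barcode by pool, with the number of barcodes in parentheses; points are barcodes, spread sideways for display, and black lines are means. Ptgs2 has a tail of barcodes with 10 or more UMIs, 12 of them on day 3, while Pla2g7 has 1 such barcode in all.

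The other members of the leukotriene and platelet activating factor routes were close to sham in these cells. Alox5ap stood at 1326, 1392, 1285 and 1367 CPM in the sham, day 3, day 7 and day 14 pools, with ratios of 1.05 (0.939 to 1.18), 0.969 (0.847 to 1.11) and 1.03 (0.896 to 1.19). Alox5 stood at 154, 154, 192 and 152 CPM, and its ratios were 1.01 (0.72 to 1.42), 1.25 (0.857 to 1.84) and 0.989 (0.64 to 1.52). The intervals reach 1.19-fold higher in Alox5ap and 1.84-fold higher in Alox5. Pla2g7 stood at 343, 379, 252 and 356 CPM; its day 7 ratio of 0.735 had an interval below 1 (0.549 to 0.98), and the other days stood at 1.11 and 1.04. Lta4h rested on 10 to 15 UMIs a pool and was not resolved, with day 3 at 0.671 (0.282 to 1.67).

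**Figure D4:**
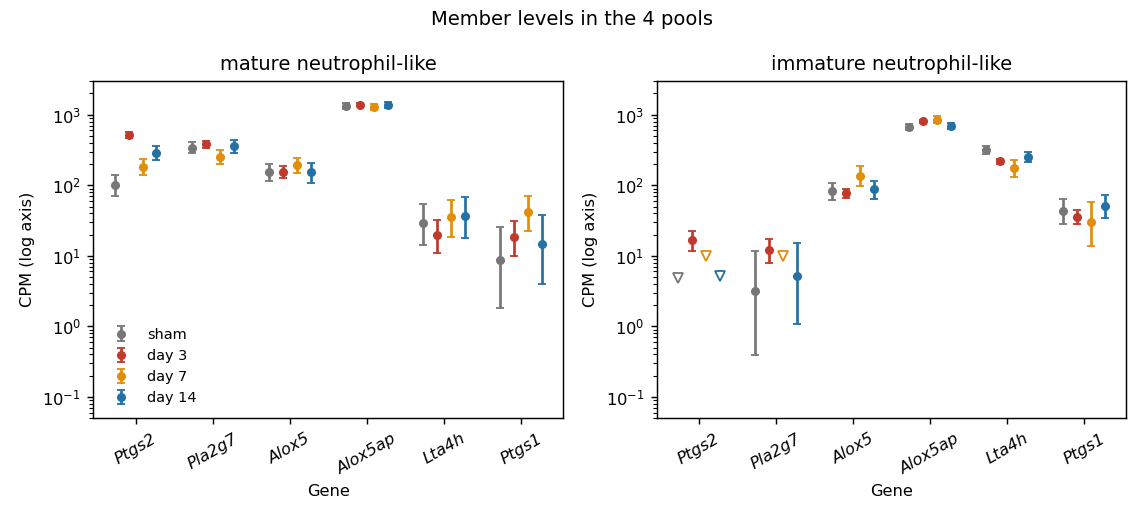
Levels of 6 members in CPM (log axis) in mature (left) and immature (right) neutrophil-like cells of the 4 pools; points are pooled levels, bars are 95% Poisson intervals, and open triangles are the level of 3 UMIs where none was counted. In mature cells Ptgs2 is lowest in sham at 100.4 CPM and highest on day 3 at 509.7 CPM, while Alox5ap stays between 1285 and 1392 CPM.

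The stage mix of the mature gate differed between pools, and Ptgs2 was therefore also read within stage bins. In the most mature bin it stood at 331 CPM (200 to 518) in the sham pool, 1252 CPM (1087 to 1435) on day 3, 690 CPM (416 to 1078) on day 7 and 1331 CPM (974 to 1775) on day 14. In the fifth bin the levels were 22.2, 621, 298 and 154 CPM, the first on 1 UMI in 11 barcodes. In the fourth bin they were 118, 238, 85.3 and 215 CPM. On day 14, 1 barcode held 32 of the 46 Ptgs2 UMIs of the most mature bin. Another held 20 of the 22 UMIs of the fourth bin on that day. Day 3 was above sham in all 3 bins, but in bin 4 the intervals of sham (64.6 to 198) and day 3 (185 to 302) met. Day 7 was lower than sham in bin 4 on 8 against 14 UMIs. Its interval there (36.8 to 168) overlapped that of sham, so this difference was not resolved. In the sham pool 1 barcode held 12 of 34 Ptgs2 UMIs, and bins 4, 5 and 6 held 14, 1 and 19. That barcode thus made up most of either bin 4 or bin 6, and levels without it were not read within bins. Pla2g7 in the most mature bin stood at 1169, 883, 726 and 955 CPM, with sham the highest. Immature neutrophil markers in the mature gate summed to 13789, 5860, 10887 and 10189 CPM over 8 genes, 1 of them at 0 in every pool, so the day 3 cells carried the least.

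Within the mature gate Ptgs2 went with Il1b, which encodes the cytokine interleukin-1 beta. Il1b itself stood at 2466, 4666, 2819 and 3294 CPM in the sham, day 3, day 7 and day 14 pools. Barcodes were split at the median Il1b level of all 300. In the high group Ptgs2 stood at 148 CPM (82.7 to 244) in sham, 997 CPM (892 to 1112) on day 3, 380 CPM (269 to 522) on day 7 and 794 CPM (625 to 993) on day 14. In the low group the levels were 80.1 CPM (48.2 to 125), 137 CPM (105 to 177), 96.7 CPM (61.3 to 145) and 11.5 CPM (1.39 to 41.5). The intervals of the 2 groups overlapped in the sham pool and were apart on each day after noise. One sham barcode held 12 of the 19 UMIs of the low group. Without the highest barcode of each group, sham stood at 102 CPM (48.7 to 187) in the high and 30.4 CPM (12.2 to 62.7) in the low group, a wider gap with intervals that still met. By the same step the high group stood at 922, 257 and 486 CPM and the low group at 113, 68.1 and 6.04 CPM on days 3, 7 and 14. Pla2g7 was higher in the high group in all 4 pools, sham included, at 779 against 156 CPM there. The high group was also shallower, with medians of 3794 against 7152 UMIs, and the part of depth and stage in this split was not tested.

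**Figure D5:**
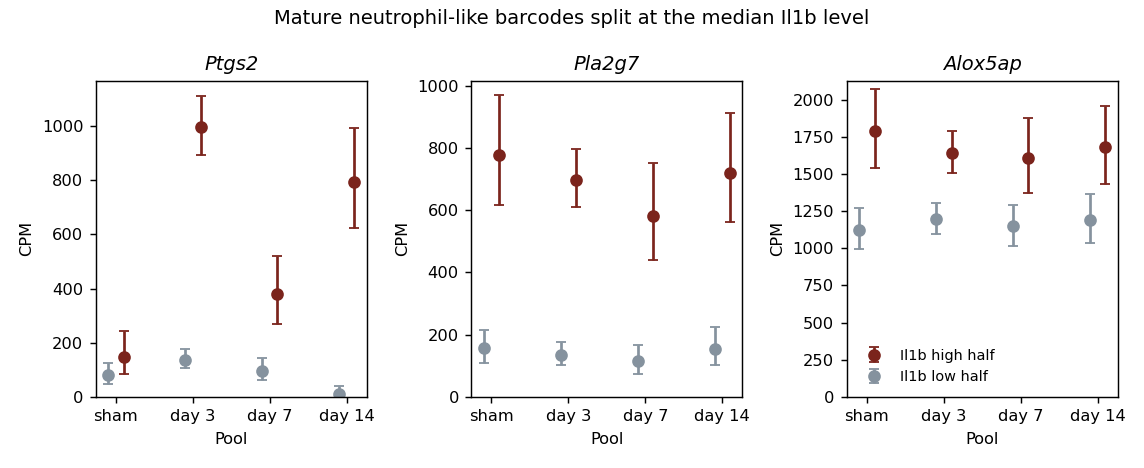
Levels in CPM of Ptgs2, Pla2g7 and Alox5ap in mature neutrophil-like barcodes of each pool, split at the median Il1b level into a high (dark red) and a low (grey) group; bars are 95% Poisson intervals. Ptgs2 differs between the groups after noise, 997 against 137 CPM on day 3, and less in sham, 148 against 80.1 CPM, where 1 barcode held 12 of the 19 UMIs of the low group.

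Genes of the immediate early response, which can be switched on while tissue is being digested, moved in part with Ptgs2. The 9 genes of that list summed to 8873, 12771, 4598 and 6121 CPM in mature neutrophil-like cells of the sham, day 3, day 7 and day 14 pools, none at 0. Day 3 was highest for both, whereas on days 7 and 14 the list was below sham and Ptgs2 above it. Its part in the Ptgs2 levels was not tested. Monocyte markers in this gate summed to 606 to 711 CPM over 7 genes, with 1 to 3 at 0, and macrophage markers to 11.1 to 26.6 CPM over 10 genes, with 5 to 8 at 0.

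Immature neutrophil-like cells could be compared with sham on day 3 only, with 134 against 33 barcodes. Lta4h was lower, 217 against 317 CPM, a ratio of 0.685 (0.58 to 0.813), or 0.754 without the highest barcode of each pool. Alox5ap was slightly higher, 810 against 677 CPM, with a ratio of 1.20 (1.08 to 1.33). Alox5 stood at 0.927 (0.677 to 1.29) and Ptgs1 at 0.826 (0.528 to 1.33). The sham cells of this gate carried more progenitor markers, 2084 CPM summed over 7 genes against 95.03 CPM on day 3, with 1 gene at 0 in each; the part of this in the Lta4h ratio was not tested. Of 7 members measured, Ptgs2, Ptges and Pla2g7 were at least 1.5-fold higher and none was lower, against 13.4% and 16.3% of all genes. Those 3 rested on 0, 3 and 2 UMIs in sham, and the count was 0 with lineages from Leiden clusters and 1 (Pla2g7) without the highest barcode of each gene. With a leading hashtag share of 95% Lta4h passed the fold as lower. Ptges stood at 1.77 (0.52 to 9.31) and Pla2g7 at 3.76 (0.945 to 32.7), and their intervals include 1. Ptgs2, with 0 UMIs in sham, was at least 3.44-fold higher with 37 UMIs on day 3, 26 of them in 1 barcode.

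In B cell precursor-like cells 3 members could be measured, all at low levels. Hpgds stood at 21.2, 10.3, 4.59 and 10.0 CPM in the sham, day 3, day 7 and day 14 pools, on 17, 8, 3 and 4 UMIs. The ratios were 0.487 (0.182 to 1.19), 0.216 (0.0406 to 0.748) and 0.473 (0.116 to 1.45), so the day 7 interval alone lay below 1. Sham had the highest level, and each day's count was 8 UMIs or fewer. Members at least 1.5-fold lower numbered 1, 2 and 3 of 3 on days 3, 7 and 14, none was higher, and 7.7%, 12.7% and 11% of all genes were lower and 9.13%, 10.2% and 10.3% higher. The 3 counts were 0, 0 and 1 without the highest barcode of each gene and also with at most 5% mitochondrial UMIs, where fewer members were measured. Lta4h, with 37.5 CPM in sham, stood at 1.03, 1.47 and 0.603, each interval including 1, and passed 1.5-fold higher on day 7 without the mitochondrial filter, with Leiden clusters and with barcodes weighted alike. In T cell-like cells no member reached 20 UMIs.

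Over all barcodes, Ptgs2 stood at 21.7, 74.2, 31.6 and 65.1 CPM, which is 3.42-, 1.46- and 3.00-fold the sham level. With the lineages weighted as in sham the ratios were 2.95, 1.15 and 3.03, so the day 7 difference was smaller when the mix was held fixed. Alox5ap over all cells was 1.43-fold higher on day 3 (1.35 to 1.52) and 1.08-fold at the sham mix. Alox5 went from 1.36 to 0.966 and Lta4h from 1.29 to 0.995 by the same step. Neutrophil-like cells of both stages made up 16.7% and 9.68% of sham barcodes and 24.7% and 24.3% of day 3 barcodes. Of 9 members measured on day 3, 2 were at least 1.5-fold higher (Ptgs2, Ptges) and 1 lower (Ltc4s), against 7.21% and 15.2% of all genes. The median log2 ratio of all genes was -0.19 on day 3, and with counts scaled by the median ratio of genes 6 members were higher and none lower. On day 7 Ltc4s alone of 8 was higher, and on day 14 Ptgs1, Ptgs2 and Ltc4s of 8, against 7.87% and 5.93% of all genes, with none lower against 7.03% and 12.7%. The Ltc4s counts turned on single barcodes: 1 barcode held 42.1% of the sham, 53.8% of the day 7 and 66.7% of the day 14 UMIs. Without the highest barcodes the Ltc4s ratios were 0.916, 1.53 and 1.20.

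A list of 58 other genes of these routes was read beside the members. In mature against immature neutrophil-like cells 25 were measured, of which 6 were at least 1.5-fold higher and 10 lower, beside 28.4% and 34.6% of all genes, so the counts are near those shares. Cyp4f18, a cytochrome that inactivates leukotriene B, was 14.2-fold higher (11.7 to 17.4), at 464 against 32.6 CPM. Ptafr, the receptor of platelet activating factor, was 8.82-fold higher (7.05 to 11.1), and Lpcat2, an enzyme that makes the factor, 3.76-fold higher (3.16 to 4.47). Ggt5, which trims cysteinyl leukotrienes, was 5.36-fold, the lipase gene Pnpla2 3.03-fold and the thromboxane synthase gene Tbxas1 2.52-fold higher. Ltb4r1, the high-affinity receptor of leukotriene B, went the other way, with 144 against 478 CPM, a ratio of 0.301 (0.262 to 0.344). Mgst2, a glutathione transferase that can make leukotriene C, stood at 0.165 (0.11 to 0.24) and Ptgr1, a reductase that inactivates prostaglandins and leukotriene B, at 0.0255 on 1 mature UMI. The median log2 ratio of the list was -0.14, beside -0.07 for all genes. For the members it was 0.81 over only 7 measured genes, 4 of them higher and 3 lower, so it describes no common direction. 

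Between the pools the listed genes were closer to sham in mature neutrophil-like cells. Of 10 measured, 0, 1 and 1 were at least 1.5-fold higher on days 3, 7 and 14, and 1 was lower on each day. Of all genes, 15.5%, 10.8% and 9.53% were higher and 9.19%, 11.2% and 13.7% lower, so these counts are near those shares. Ltb4r1 was lower on day 3, 117 against 198 CPM, with a ratio of 0.594 (0.428 to 0.828). Its later ratios were 0.793 (0.542 to 1.15) and 0.674 (0.437 to 1.03). Ltb4r1 was higher in immature cells, and immature markers in the mature gate summed to 13789 CPM in sham and 5860 CPM on day 3. The listed genes were not read within stage bins, and the part of the stage mix in their ratios was not tested. Ptges3, the cytosolic prostaglandin E synthase that also serves as a chaperone partner, stood at 0.501 (0.198 to 1.18) on day 7 and 0.418 (0.136 to 1.10) on day 14, on 9 and 6 UMIs. Ggt5 on day 7, at 1.63 (0.841 to 3.25), and Pnpla2 on day 14, at 1.55 (0.84 to 2.90), had intervals that include 1. Cyp4f18 stood at 402, 518, 412 and 459 CPM, a ratio of 1.29 (1.06 to 1.58) on day 3.

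Other listed genes had their highest level outside neutrophils. In macrophage-like cells Hpgd stood at 168 CPM (128 to 216) with 93.8% of its 64 UMIs, the lysosomal phospholipase gene Pla2g15 at 126 CPM and Tbxas1 at 103 CPM. Cysltr1 and Ptger4, receptors of cysteinyl leukotrienes and of prostaglandin E, stood at 101 CPM each in dendritic cell-like cells. Pafah1b3, a subunit of the intracellular acetylhydrolase, stood at 895 CPM (859 to 932) in B cell precursor-like cells, which held 83.8% of its UMIs and also had the highest levels of Pla2g12a (135 CPM) and Ptgr1 (114 CPM). Pla2g16 was highest in T cell-like cells (132 CPM), Akr1b3, an aldose reductase that can make prostaglandin F, in NK cell-like cells (125 CPM) and Pafah1b1 in B cell-like cells (270.1 CPM). Ptges3 and Gpx4, a peroxidase of lipid hydroperoxides, were highest in the basophil or mast cell-like gate at 242 and 538 CPM. Cotl1, a partner of 5-lipoxygenase, was highest in mature neutrophil-like cells at 786 CPM, with macrophage-like cells at 743 CPM.

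For each member with at least 100 UMIs, the genes with the most similar profile over the 9 lineages with at least 20 barcodes were listed by Pearson correlation of log2(CPM + 20), among 8159 genes. Pla2g7 was nearest to Nlrp3 (r = 0.99), Cd300ld (0.985) and Sirpb1b (0.984). Ptgs2 was nearest to Sephs2 (0.963), Map2k3 (0.96) and Nek9 (0.922). Alox5 was nearest to Pilrb1 (0.996), Ccno (0.994) and Tinagl1 (0.994), and Alox5ap to Peli2 (0.988), Clec4a2 (0.985) and Cebpd (0.977). Lta4h was nearest to Ica1 (0.978), Lbp (0.962) and Prom1 (0.957), Ptgs1 to Galc (0.959), Hcfc1r1 (0.925) and BC037034 (0.909), and Hpgds to Cd151 (0.965), Nudt16 (0.963) and Nfxl1 (0.947). Pairs of members were taken among all 9, also Ltc4s and Ptges, whose 88 and 30 UMIs fall short of that limit. The highest value was that of Hpgds and Ltc4s (0.919), followed by Ptgs1 and Ltc4s (0.805) and Ptgs2 and Pla2g7 (0.801). Macrophage-like cells held 55.7% of the Ltc4s UMIs, so the values of Ltc4s rest largely on 1 lineage. Ptgs1 and Ptgs2 had 0.19, and Lta4h and Pla2g7 -0.31. The 9 lineages share 1 library and differ in depth, so these values describe profiles only.

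Gene positions are those of the GENCODE vM21 annotation on build GRCm38. Ptgs1 is at chr2:36230426-36252272 and Ptges at chr2:30889471-30929863, Ptgs2 at chr1:150100031-150108227, Hpgds at chr6:65117293-65144908 and Alox5 at chr6:116410077-116461178. Alox5ap is at chr5:149264767-149288153, Lta4h at chr10:93453411-93484875, Ltc4s at chr11:50236461-50238616 and Pla2g7 at chr17:43568098-43612201. Annotated genes overlap Ptgs1, Ptges, Hpgds, Alox5ap, Ltc4s and Pla2g7, and no label or header used here says how reads from such overlaps were counted.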

How the data were processed

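The authors deposited UMI counts per gene and barcode, and per hashtag, as whole numbers written by Cell Ranger 3.1.0, per the file headers. The submitters' processing notes name the build mm10; the calling of cell barcodes was not given in the sources used here. Barcodes with at least 200 genes and at most 10% mitochondrial UMIs were kept. Each barcode was scored on 20 marker panels by the mean of its 4 highest markers, as log2(1 + counts per 10000) scaled by the 99.5th percentile. A gate needed 3 detected markers and a score of 0.25. A barcode was mixed when a lineage of another family reached 0.75 of that score. Mature and immature neutrophils and myeloid progenitors formed 1 family. Macrophages, monocytes and both dendritic cell gates formed another, as did B cells with their precursors and plasma cells, and T with NK cells. Barcodes with markers of 2 lineages of the same family were therefore kept, in the gate with the higher score. No doublet caller was run; barcodes without a single hashtag (197) and mixed barcodes were left out. The markers were set before the files were opened, the scoring rule after. Members, lists and tests were chosen with earlier results of these data known. UMIs were summed per lineage and pool and divided by the total (CPM); ratios carry exact intervals conditional on the summed UMIs, and a count of 0 was set to 3 UMIs to give a bound. Lineages with at least 30 barcodes in both pools and genes with at least 20 UMIs in the 2 pools together were compared. Levels and ratios without the highest barcode leave out that barcode's UMIs of the gene but keep its UMI total. In the Il1b split both were left out. The ratio and interval code was tested on simulated data. Named genes are the members, the 3 nearest genes of each by profile, and listed genes past 1.5-fold in mature neutrophil-like cells or with a highest level of 100 CPM or more; Alox15, Mrc1, Ccr2, Il1b and Ptgds were added after their values were seen. Alternatives were other hashtag, mitochondrial and UMI limits, Leiden clusters, other scalings, mixed barcodes kept, the highest barcode left out and thinning; leaving out barcodes near the stage cut a score over all markers, and the Il1b split without the highest barcodes were added after the data were seen. Software was scanpy 1.11.5, scipy 1.17.1, pandas 2.3.3 and numpy 2.4.6 under Python 3.11.15, with matplotlib 3.10.9.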

Additional observations from a re-analysis of the deposited data

Results flagged for a closer look

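Ptgds, which encodes the lipocalin-type prostaglandin D synthase and is not among the 9 genes, had a signal in barcodes that entered no pool. The 48 barcodes that passed the cell filter but had fewer than 10 UMIs of their leading hashtag held 56 Ptgds UMIs, 1715 CPM (1296 to 2228), in 25 barcodes. The sham pool stood at 3.104 CPM (1.55 to 5.56). These barcodes were shallow, with a median of 611 UMIs, and Ttr, a gene of epithelium that secretes transthyretin, made up 252933 CPM. Ltc4s stood at 184 CPM (67.5 to 400.0) there on 6 UMIs and Hpgds at 91.9 CPM (18.95 to 269) on 3 UMIs, and Ptgs1 and Ptgs2 had 1 UMI each.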

How the results depend on the processing

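Over 12 alternatives the Ptgs2 ratio in mature neutrophil-like cells ranged from 3.97 to 7.27 on day 3, 1.67 to 2.31 on day 7 and 2.46 to 2.89 on day 14, and Ptgs2 was past 1.5-fold in each. Of 1296 values recomputed, 1168 stayed within the main interval, or within 1.5 times for a count, and 127 moved out of it. One ratio past 1.5-fold changed side of 1: Alox5ap on day 7 in B cell precursor-like cells stood at 1.20 with each barcode weighted alike. Ratios short of 1.5-fold also changed side, such as Lta4h in mature cells on day 3 (1.94 with Leiden clusters against 0.671) and on day 7 (0.70 with barcodes weighted alike against 1.20). The cause of these shifts was not tested, apart from the wider set measured at 5 UMIs. In mature neutrophil-like cells, members at least 1.5-fold lower on day 3 numbered 1 (Lta4h) with a leading hashtag share of 95%, with barcodes weighted alike, without 70 barcodes near the stage cut and with a score over all markers. Members higher numbered 3 on day 3 (Ptgs1, Ptgs2, Lta4h) and 2 on day 14 (Ptgs2, Lta4h) with Leiden clusters. On day 7 they numbered 2 (Ptgs2, Alox5) with barcodes weighted alike and without barcodes near the stage cut. With genes of at least 5 UMIs they numbered 2 on each day (Ptgs1, Ptgs2). Over all cells without the highest barcode of each gene, 0 members were lower on day 3, 3 higher on day 7 and 1 lower on day 14. With barcodes weighted alike 5 were higher on day 3, 4 higher and 1 lower on day 7, and 1 lower on day 14. Scaled by the median ratio of genes, 6 were higher and 0 lower on day 3, and with 5 UMIs 1 (Ptges) was lower on day 14. In immature neutrophil-like cells on day 3, 0 members were higher with Leiden clusters, 1 without the highest barcodes, and 1 (Lta4h) lower with a hashtag share of 95%. In B cell precursor-like cells, members lower on days 3, 7 and 14 numbered 0, 0 and 1 without the highest barcodes and with at most 5% mitochondrial UMIs. They numbered 1 on day 7 with a hashtag share of 95%, 1 on days 7 and 14 with 50 hashtag UMIs, 0 on day 3 with Leiden clusters and 1 on day 7 with barcodes weighted alike. One (Lta4h) was higher on day 7 without a mitochondrial filter, with Leiden clusters and with barcodes weighted alike. Listed genes past 1.5-fold either way in mature cells numbered 1, 2 and 2 on days 3, 7 and 14, and 7, 11 and 8 with 5 UMIs. On day 3 they numbered 2 without a mitochondrial filter and with a score over all markers, 5 with Leiden clusters and 0 without barcodes near the stage cut. On day 14 they numbered 1 with at most 5% mitochondrial UMIs, with barcodes weighted alike and without barcodes near the stage cut. In immature cells on day 3 the 9 listed genes became 5 without a mitochondrial filter, without the highest barcodes, with barcodes weighted alike and without those near the stage cut, 4 with Leiden clusters and 14 with 5 UMIs. In B cell precursor-like cells on day 3 the count of 0 became 1 with Leiden clusters, the median ratio, mixed barcodes kept and all markers, 2 with at most 5% mitochondrial UMIs and without the highest barcodes, 3 with barcodes weighted alike and 5 with 5 UMIs. On day 14 there the count of 2 became 1 without the highest barcodes and with all markers, and over all cells 4 became 7 with barcodes weighted alike and 12 with 5 UMIs. Hpgds over all cells on day 3 stood at 0.407 with barcodes weighted alike against 0.944. No paired analysis was possible because each condition is 1 pool. Depth limits the comparison to 5 members in mature neutrophil-like cells, whose totals ranged from 269899 to 757325 UMIs per pool.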

Other observations

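The 44 barcodes that passed the cell filter but in which no hashtag reached the share needed were deep, with a median of 18223 UMIs. Ptgs2 stood at 102.5 CPM (82.2 to 126) in them, on 88 UMIs in 8 barcodes, above each of the 4 pools taken whole (21.7 to 74.2 CPM). Alox5ap stood at 690 CPM (635 to 747) and Pla2g7 at 58.2 CPM (43.2 to 76.8). These barcodes entered no comparison.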
